A study of Mus musculus with 8 samples.

Results

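The 10 genes Tmem119, P2ry12, P2ry13, Sall1, Siglech, Olfml3, Gpr34, Fcrls, Sparc and Crybb1, a signature by which resident microglia are commonly told from other macrophages, were followed in marrow-derived cells of the mouse brain. They were taken as every probe, outside the control spots, whose gene name or RefSeq accession belongs to one of the 10. This gave 16 array features for 10 of the 47242 gene names on the array, and every member was present. The series sorted cells from the ischemic brain 7 days after a 30 min occlusion of the middle cerebral artery (MCAo) with reperfusion, and hybridised their RNA to 8 single-colour Agilent arrays. It compared 4 samples labelled Psgl1+/+ (wild-type, replicates 1 to 4) with 4 labelled Psgl1-/- (knockout, replicates 5 to 8), where Psgl1 is the gene Selplg, which encodes the selectin ligand PSGL-1.

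Both groups came from chimeras: wild-type hosts had received DsRed bone marrow, marked by a red fluorescent protein, from Selplg wild-type or Selplg knockout donors. All hosts had the stroke, so no sample came from an uninjured brain. The cells were sorted as PI- DsRed+ CD11b+ Ly6G- CD3- CD45hi, that is live, donor-derived myeloid cells with high CD45. Host microglia carry no DsRed and lie outside this gate. The sources used here give neither strain, sex and age nor the number of animals behind each sample. A p-value therefore reflects the spread among these 8 samples alone, part of which may be technical. The cells came from bulk sorts, so fewer cells of a type and less RNA per cell cannot be told apart.

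Microglia arise from yolk sac precursors and renew themselves within the brain, whereas monocytes and the macrophages they form come from bone marrow. The transcription factor Sall1, together with TGF-beta signalling, maintains the signature in resident microglia. Marrow-derived cells that enter the brain are known to take up this program only in part.

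The arrays read short stretches of each transcript. The probes of the 3 receptor genes are shown because P2ry12, P2ry13 and Gpr34 belong to a related group of G protein-coupled receptors, and a shared stretch could let a probe take up a relative's RNA. Capitals mark the bases of a relative's probe that are identical to the P2ry12 probe where the pair was laid together without gaps.
P2ry12: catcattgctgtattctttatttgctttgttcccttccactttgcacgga
P2ry13: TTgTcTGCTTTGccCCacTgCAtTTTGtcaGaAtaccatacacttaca
Gpr34: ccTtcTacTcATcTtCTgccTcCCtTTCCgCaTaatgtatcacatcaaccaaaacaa
The P2ry13 probe shared 21 of the 33 overlapping bases with that of P2ry12 (63.6%), with a longest identical run of 7 bases. The Gpr34 probe shared 17 of 41 (41.5%), with a longest run of 4.

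Of the 16 features, 2 resemble sequence beside other genes. A Siglech probe and a Sparc probe matched stretches in the promoters of other genes (at least 30 bases at 85% identity or more, either strand, without gaps), as set out in RefSeq for GRCm38.p6, 250 bases before to 50 after each start. The window of 30 bases that the most matches covered is shown for each probe, with the stretch common to all matches in capitals.
Siglech probe 1: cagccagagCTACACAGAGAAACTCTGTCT
Sparc probe 2: ACAGACATACATGCAGGCAAAACACTtata
The Siglech probe had matches at 27 of 27025 genes (0.0999%), and the Sparc probe at 7 (0.0259%). Only promoters were searched, so copies of these stretches elsewhere in the genome or in transcripts were not counted. None of the other 14 features had a match by this rule. A match describes the letters and does not show which RNA was bound.

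All 10 members were well above background on all 8 arrays. That criterion was permissive here, since 76.1% to 88.2% of the gene spots of an array met it, as did all 7 neuron markers and all 7 oligodendrocyte markers on all 8 arrays. Presence of signal alone therefore does not set the members apart. Of the sort's own markers, Itgam (CD11b) had 13.11 to 14.18 on the wild-type arrays and 12.23 to 14.34 on the knockout arrays, in log2 signal after scaling. Ptprc (CD45) was far less steady, at 8.86, 8.65, 13.57 and 13.89 in the wild-type group, against 9.46, 12.70, 13.04 and 8.88 in the knockout group. All levels below are on that scale, log2 of the processed signal after each array was set to the same 75th percentile, and differences are knockout minus wild-type. The signal of Selplg itself does not check the labels, because the sources used here do not say what the knockout allele lacks. It ranged from 12.68 to 15.74 in the wild-type group and from 12.88 to 13.45 in the knockout group, within the wild-type range, and its difference was -0.63, or 0.01 without wild-type replicate 4.

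No member passed the test between genotypes: 0 of 10 had an adjusted p under 0.05 (limma, Benjamini-Hochberg over 42432 tested genes), and 0.00236% of all tested genes did, which is 1 gene. Feature by feature it was 0 of 16, beside 0.0175% of 51380 tested features. The tested genes, here and below, include array names not found in RefSeq. With probes named through RefSeq alone, 12 genes passed, none of them a member. Of the members 6 had a positive and 4 a negative difference, with a median of 0.08, whereas over all tested genes 31.0% were positive and the median was -0.33. At an unadjusted p under 0.05 there were 2 members, Sparc and Crybb1, both lower in the knockout arrays, beside 10.8% of all tested genes. The spread between arrays of a genotype was wide for several members and narrow for others.

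**Figure D1:**
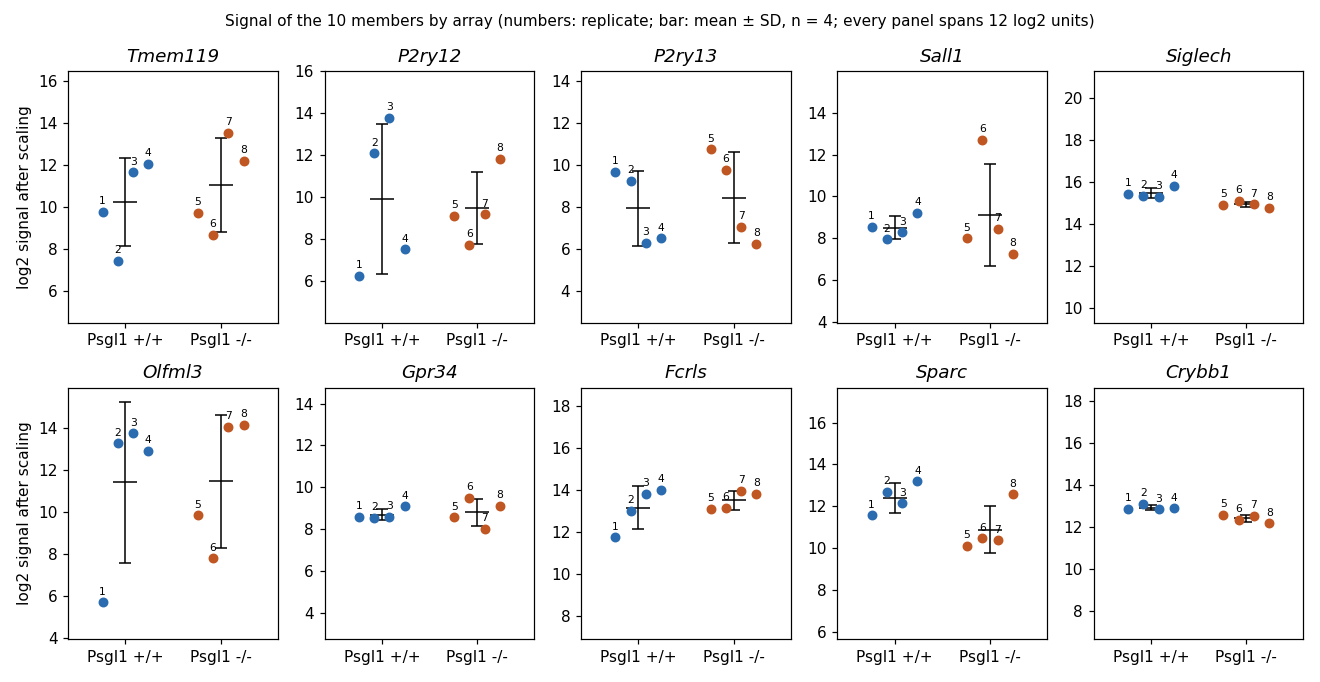
Log2 signal after scaling of the 10 members, 1 panel per gene, by genotype, with replicate numbers beside the points and bars for the mean ± SD (n = 4). Each panel shows the main feature of its gene and covers the same span of 12 log2 units. The wide scatter of Olfml3 and P2ry12 can thus be set beside the tight points of Siglech and Crybb1.

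P2ry12 encodes the ADP receptor by which microglial processes find sites of injury. Its log2 signal was 6.25, 12.07, 13.77 and 7.50 in the wild-type group (replicates 1 to 4, in that order), against 9.10, 7.71, 9.17 and 11.82 in the knockout group (replicates 5 to 8). Wild-type replicates 2 and 3 and knockout replicate 8 were high, and the groups overlapped over the whole knockout range. The difference was -0.45 (SE 1.77, limma adjusted p = 0.926). Its 95% interval ran from -4.57 to 3.68. The wild-type arrays alone spanned 184-fold and the knockout arrays 17.3-fold.

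P2ry13 is the neighbouring ADP receptor gene, with no protein-coding gene between it and P2ry12 on chromosome 3. The arrays read a log2 signal of 9.69, 9.27, 6.29 and 6.52 in the wild-type group, against 10.75, 9.79, 7.05 and 6.25 in the knockout group. Replicates 1, 2, 5 and 6 were high and replicates 3, 4, 7 and 8 low, whatever the genotype. The difference was 0.52 (SE 1.25, limma adjusted p = 0.874). Wild-type replicate 3, the highest array for P2ry12, was next to lowest for P2ry13.

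Gpr34, a receptor for lysophosphatidylserine, was among the steadier members. Its log2 signal was 8.59, 8.55, 8.59 and 9.10 in the wild-type group, against 8.57, 9.50, 8.02 and 9.14 in the knockout group. Wild-type replicate 4 stood above the other 3 of its group, and the genotypes overlapped. The difference was 0.10 (SE 0.37, limma adjusted p = 0.916), with a 95% interval from -0.75 to 0.96, narrower than that of P2ry12.

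Sall1 encodes the zinc finger transcription factor that maintains microglial identity. The arrays read a log2 signal of 8.55, 7.96, 8.29 and 9.23 in the wild-type group, against 8, 12.71, 8.47 and 7.27 in the knockout group. A single array, knockout replicate 6, was far above the rest, while the other 3 knockout arrays lay in or below the wild-type range. The difference was 0.61 (SE 1.13, limma adjusted p = 0.831), and without that array it was -0.59.

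Tmem119 encodes a transmembrane protein used to label resident microglia. Its log2 signal was 9.76, 7.44, 11.64 and 12.04 in the wild-type group, against 9.72, 8.68, 13.53 and 12.20 in the knockout group. Replicates 3, 4, 7 and 8 were high and the others low, the reverse of P2ry13. The difference was 0.81 (SE 1.37, limma adjusted p = 0.814), within a 95% interval from -2.37 to 3.99. Selplg lies beside Tmem119 on chromosome 5, with no protein-coding gene between them in RefSeq, so the targeted locus adjoins this member. The 6 neighbours of Tmem119 that were listed, Selplg included, had 4 positive and 2 negative differences with a median of 0.59, and none passed.

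Siglech encodes a sialic acid-binding lectin of microglia and plasmacytoid dendritic cells. Its main feature, probe 1, had a log2 signal of 15.45, 15.34, 15.31 and 15.84 in the wild-type group, against 14.93, 15.11, 14.95 and 14.78 in the knockout group. Every knockout array lay below every wild-type array, as was the case for 10.7% of all tested genes, while 0.648% had every knockout array above. The difference was -0.54 (SE 0.23, limma adjusted p = 0.458). Before scaling, the signals overlapped, from 33170 to 41460 on the wild-type arrays and from 35310 to 40990 on the knockout arrays. This is the probe whose sequence recurs at other promoters, and the part of other transcripts in its signal was not tested.

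The other Siglech features did not follow probe 1. Probe 3, named for a predicted transcript, had 10.83, 10.44, 10.20 and 10.26 in the wild-type group, against 10.29, 11.68, 10.39 and 9.74 in the knockout group, a difference of 0.09. Probe 2, at chr7:63028608-63028667 of mm9 on the plus strand per the files, was well above background on 6 of 8 arrays and differed by -0.29. The groups overlapped for both. A further probe, which the files tie to Siglech only in their list of accessions and which lies outside the rule for members, differed by 1.02. Of 8 tested markers of plasmacytoid dendritic cells, which also express Siglech, 3 differed positively and 5 negatively, with a median of -0.33 and none past the threshold. Their summed signal was 6940 to 13500 in the wild-type arrays and 10400 to 16100 in the knockout arrays, and their part in the Siglech signal was not tested.

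Fcrls encodes an Fc receptor-like scavenger receptor of microglia. Probe 1 had a log2 signal of 11.73, 13, 13.80 and 14 in the wild-type group, against 13.10, 13.12, 13.95 and 13.80 in the knockout group. Wild-type replicate 1 was lowest, and the groups overlapped. The difference was 0.36 (SE 0.53, limma adjusted p = 0.785), and without wild-type replicate 1 it was -0.10. Probe 2 was well above background on 4 of 8 arrays and differed by 0.37.

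Olfml3 encodes a secreted olfactomedin-like glycoprotein. Probe 1 had the widest pooled spread within groups among the main features of the members, with a log2 signal of 5.69, 13.27, 13.74 and 12.91 in the wild-type group, against 9.84, 7.78, 14.05 and 14.15 in the knockout group. Wild-type replicate 1 was at the bottom of its group and knockout replicates 5 and 6 at the bottom of theirs. The wild-type arrays spanned 265-fold and the knockout arrays 82.7-fold. The difference was 0.06 (SE 2.21, limma adjusted p = 0.993), and it was -2.12 in slide row 1 and 2.24 in slide row 2.

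A different probe of Olfml3 gave a different pattern. Probe 3, at chr3:103537878-103537937 of mm9 on the minus strand per the files, had 6.21, 11.41, 5.55 and 14.26 in the wild-type group, against 5.62, 5.21, 5.46 and 5.20 in the knockout group. It was high on wild-type replicates 2 and 4 alone, and its wild-type arrays spanned 418-fold, whereas probe 1 was also high on wild-type replicate 3 and knockout replicates 7 and 8. The probe 3 difference was -3.99 (SE 1.87, limma adjusted p = 0.48 over features). Probe 2, at chr3:103535597-103535656, was well above background on 6 of 8 arrays and stayed between 3.98 and 5.45.

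Sparc encodes a secreted matrix glycoprotein of microglia that endothelial cells and fibroblasts also make. Probe 1, averaged over 5 spots, had a log2 signal of 11.57, 12.71, 12.15 and 13.20 in the wild-type group, against 10.13, 10.48, 10.39 and 12.57 in the knockout group. Knockout replicates 5, 6 and 7 lay below all wild-type arrays, and knockout replicate 8 within their range. The difference of -1.52 (SE 0.62, 95% interval from -2.96 to -0.07) had an unadjusted p of 0.0416 and an adjusted p of 0.458 by limma. The 5 spots of an array had an SD of 0.067 to 0.125, far below the SD between arrays of 0.70 in the wild-type and 1.13 in the knockout group.

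Sparc probe 2, at chr11:55222956-55223015 of mm9 on the minus strand per the files, had 12.17, 11.55, 11.68 and 11.36 in the wild-type group, against 11.83, 11.67, 11.33 and 11.19 in the knockout group, a difference of -0.19. Its groups overlapped, and it is the Sparc probe whose sequence recurs at other promoters. Among 8 tested endothelial markers, summed signals were 8640 to 13800 in the wild-type and 7910 to 16600 in the knockout arrays. Of these 4 differed positively and 4 negatively, with a median of 0.04. Pecam1, an endothelial adhesion molecule that leukocytes also carry, had a difference of -1.04 and Egfl7, an endothelial matrix factor, of -1.40 (-0.82 without wild-type replicate 1), neither past the threshold. Fibroblast and mural cell markers, 9 tested, summed to 1230 to 2950 and 910 to 5730. They had 5 positive and 4 negative differences and a median of 0.01, with -0.86 for the collagen gene Col1a2 and -1.83 for the pericyte receptor Pdgfrb, again not past it. Their part in the Sparc values was not tested.

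Crybb1 encodes a beta-crystallin, a lens protein that is also found in microglia. The arrays read a log2 signal of 12.88, 13.12, 12.86 and 12.91 in the wild-type group, against 12.61, 12.35, 12.54 and 12.20 in the knockout group. Every knockout array lay below every wild-type array, as for 10.7% of all tested genes. The difference was -0.52 (SE 0.22, limma adjusted p = 0.458). Before scaling, its signal was 5417 to 8891 on the wild-type arrays and 6042 to 7185 on the knockout arrays, which overlap.

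**Figure D2:**
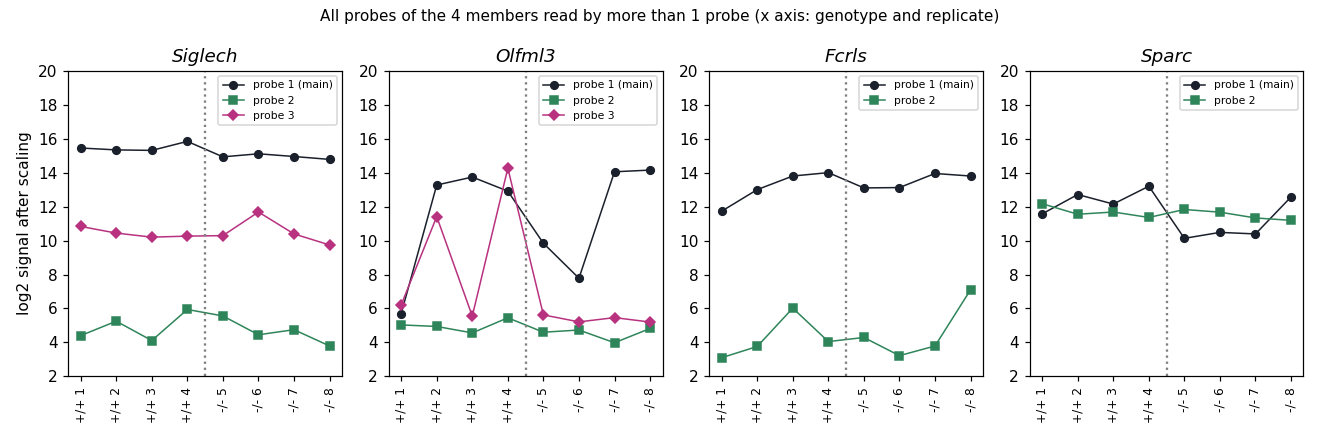
Log2 signal after scaling of every feature of the 4 members read by more than 1 probe, by array, with wild-type replicates 1 to 4 left and knockout replicates 5 to 8 right of the dotted line. The lines of a gene do not run together: Olfml3 probe 3 is high on 2 arrays, while probe 1 is high on 5.

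The differences of Siglech and Crybb1 depended on the scaling. Before scaling, the 75th percentile of an array lay at 525.8 to 748.6 (processed signal) on the wild-type and 833.3 to 958.8 on the knockout arrays, so the main scaling lowered the knockout values more. After quantile normalization the difference was -0.03 for Siglech and -0.36 for Crybb1, and after cyclic loess it was -0.09 and -0.21. With the array median both kept their sign, at -0.39 and -0.37, and Siglech alone stayed without overlap, as did 6.12% of all tested genes in the same direction. The median over all tested genes moved likewise, from -0.33 to -0.17, -0.01 and -0.18. Sparc was at -1.41, -1.26 and -1.37 in the same 3 settings.

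**Figure D3:**
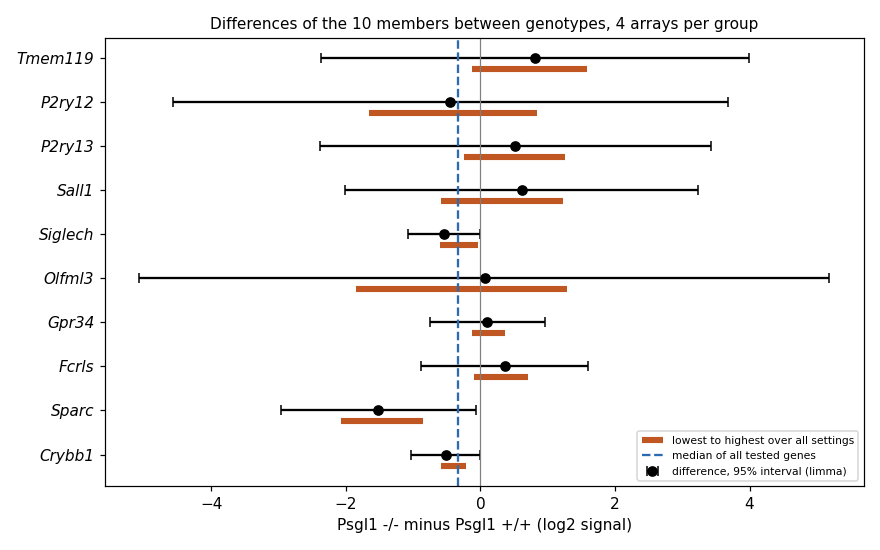
Knockout minus wild-type differences of the 10 members (points) with 95% intervals from limma (black lines), the lowest and highest difference over all settings, including each array left out (orange), and the median of all tested genes (dashed, -0.33). The intervals of 8 of the 10 members include 0, that of Sparc ends at -0.07, and that of Crybb1 ends so close below 0 (unadjusted p = 0.0483) that the plot does not show the gap.

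The members differed greatly in how steady they were. The SD between arrays of a genotype, pooled over the groups, was 3.51 for Olfml3, 2.82 for P2ry12, 2.16 for Tmem119, 1.98 for P2ry13 and 1.77 for Sall1, beside a median of 0.76 over all tested genes. These 5 members were above the 75th percentile of spread. Crybb1 (0.16) and Siglech (0.20) were under the 5th percentile. The members most variable between arrays were thus genes for receptors, a transcription factor, a surface protein and a secreted protein, and no single function held them. All these SDs are those of the main features, for Siglech the probe whose sequence recurs at other promoters. Siglech probes 2 and 3 had 0.78 and 0.61, and Olfml3 probes 2 and 3 had 0.37 and 2.96. Fcrls probe 2 had 1.51 and Sparc probe 2 had 0.32, so the spread depended on the probe.

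**Figure D4:**
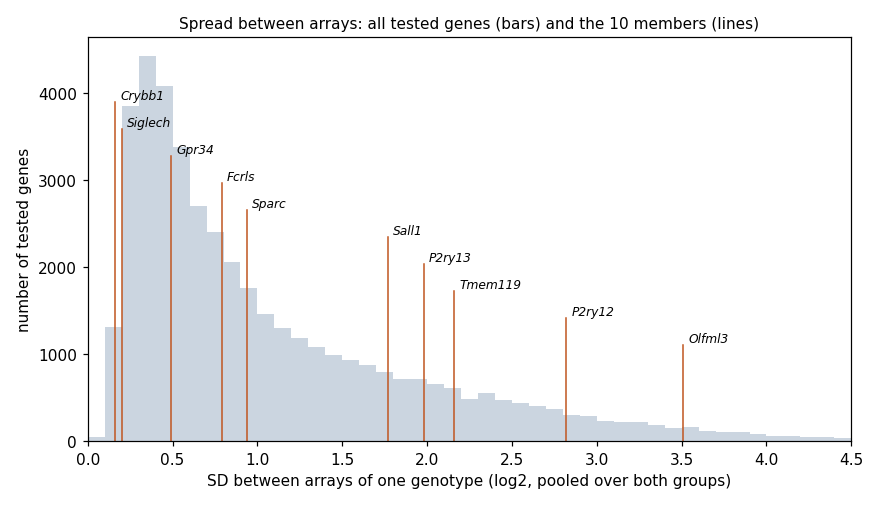
Number of tested genes by the SD between arrays of a genotype (log2, pooled over both groups, bars) with the 10 members as lines. By their main features, Olfml3 (3.51) and P2ry12 (2.82) lie in the right tail and Crybb1 (0.16) and Siglech (0.20) at the left edge.

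Some of this spread followed a division of the arrays that slide column and replicate number share, so these cannot be told apart. Slide columns 1 and 3 held replicates 1, 2, 5 and 6, and columns 2 and 4 held replicates 3, 4, 7 and 8, so each pair of columns had 2 arrays of each genotype. This division was looked at after the values were seen. Tmem119 averaged 8.90 in columns 1 and 3 and 12.35 in columns 2 and 4, and Fcrls 12.74 and 13.89, each with every array of columns 2 and 4 above every other array. Of all tested genes 2.00% had that order. P2ry13 had the reverse order, 9.87 and 6.53, shared by 1.78% of tested genes. Within the columns, the genotype difference of Tmem119 was 0.59 and 1.02, that of P2ry13 0.79 and 0.25, and that of Fcrls 0.75 and -0.02. With the column pair as a block the SE of P2ry13 was 0.35 in place of 1.25, and its limma adjusted p was 0.541. Slide row and column pair together place 1 wild-type beside 1 knockout array, and with this position as a block no member passed either (adjusted p of 0.571 or more by limma). The sources used here do not say whether these arrays were handled apart. Slide columns 1 and 2 held only wild-type arrays and columns 3 and 4 only knockout arrays, so the single column and the genotype cannot be told apart.

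The genes whose profile over the 8 arrays was most like that of Tmem119 were Arpc5 (a root mean square difference of 0.75 log2 units after centring), Hnrnpab (0.80) and Lsp1 (0.80). For P2ry12 they were Wipf1 (0.86), Dynlt3 (0.92) and Mrpl52 (0.98). Arpc5 is a subunit of the Arp2/3 actin nucleator, and Lsp1 and Wipf1 are actin-associated proteins of leukocytes. The genes were picked by profile from these same data, and a function shared among them was not tested. None of these 6 genes belongs to the microglia lists. Those lists hold few of the genes searched, so this says little about which cells the signal came from. How near the nearest profiles of other genes lie was not computed.

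Of 30 further microglia genes 15 had a positive and 15 a negative difference, with a median of 0.01. None passed, and at an unadjusted p under 0.05 there were 1 higher and 1 lower. Cx3cr1, the fractalkine receptor, had 7.57, 7.85, 8.32 and 9.53 in the wild-type group, against 7.33, 7.35, 6.68 and 6.72 in the knockout group. Every knockout value lay below every wild-type value, as for 10.7% of all tested genes. The difference was -1.30 (SE 0.46, limma adjusted p = 0.458). Abcc3, a transporter of organic anions, differed by 3.19, not past the threshold.

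Of 19 tested genes for microglial transcription factors and for TGF-beta and CSF1 signalling, 11 differed positively and 8 negatively, with a median of 0.12. None passed, and 1 higher and 2 lower had an unadjusted p under 0.05 (Smad7 was below the filter). Tgfbr2 is the receptor chain that binds TGF-beta. Its log2 signal was 5.02, 2.61, 8.40 and 5.90 in the wild-type group, against 11.12, 10, 12.60 and 12.43 in the knockout group, with well above background signal on 3 of 4 wild-type arrays. All knockout arrays were higher, as for 0.648% of all tested genes, by 6.05 (SE 1.20), yet the limma adjusted p was 0.458. Il34, a ligand of the CSF1 receptor, differed by -1.03 and the transcription factor gene Mef2a by -0.65, also not past the threshold. After cyclic loess the difference was -0.11 for Mef2a, and after normexp it was -0.01 for Mef2a and -0.28 for Il34.

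Of 16 tested purinergic receptors and nucleotide enzymes besides P2ry12 and P2ry13, 15 had a negative difference, with a median of -0.47 beside -0.33 over all tested genes. None passed, and 1, lower, had an unadjusted p under 0.05. P2ry2, a receptor for ATP and UTP, differed by -0.65 and Entpd2, which breaks down extracellular ATP, by -0.59. The 6 listed neighbours of P2ry12 and P2ry13 had 1 positive and 5 negative differences and a median of -0.77, and none passed. The positive one was that of the orphan receptor Gpr171, at 2.32. Of 31 relatives of the members by gene family, 10 were positive and 21 negative, with a median of -0.19. Siglecf, a lectin of eosinophils, differed by -1.17, and none of the relatives passed.

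Markers of marrow-derived macrophages and monocytes gave the background of the sorted cells. Of 19 tested, 15 differed positively and 4 negatively, with a median of 0.95. None passed, and 1 higher (Tmem176b, 1.01) and 1 lower had an unadjusted p under 0.05. Their summed signal was 47400 to 157000 in the wild-type and 75100 to 154000 in the knockout arrays, so the ranges overlapped. Border-associated macrophage markers, 10 tested, had 6 positive and 4 negative differences and a median of 0.15. Neutrophil markers, 8 tested, had 5 positive and 3 negative differences and a median of 0.50. None of either list passed. S100a9 differed by 4.79 and the related S100a8 by 0.59. Ly6g, the neutrophil marker excluded by the sort, had 2.30, 6.74, 7.56 and 8.59 in the wild-type group, against 7.37, 6.54, 9.96 and 10.92 in the knockout group. Cd3e, the T cell marker excluded by the sort, was at 12.04 on wild-type replicate 3 and between 6.25 and 6.48 on the other wild-type arrays. Markers of cells that should be absent had medians of -0.52 (8 lymphocyte markers), -0.57 (7 neuron), -0.44 (7 oligodendrocyte) and -0.24 (6 astrocyte), beside -0.33 over all tested genes, with none past the threshold. The lymphocyte markers summed to 37500 to 48700 in the wild-type and 25200 to 33200 in the knockout arrays. The neuron markers summed to 144000 to 223000 and 100000 to 128000. Neither pair of ranges overlapped, and 10.7% of all tested genes had every knockout array below every wild-type array after this scaling. Probes of high signal make up most of each sum, Cd79a and Ms4a1 for lymphocytes and Snap25 and Syt1 for neurons. All 8 lymphocyte markers differed negatively, as did 6 of the 7 neuron markers, while Tubb3 differed by 1.01. The neuron marker Syt1 differed by -0.57 here and by 0.03 after quantile normalization. The sums were not computed under other scalings. The oligodendrocyte sums, 22800 to 37300 and 17200 to 27200, and the astrocyte sums, 4990 to 14400 and 5050 to 7940, did overlap. The part of these cells in the members' values was not tested.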

How the data were processed

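RNA of 8 sorted samples was read on a single-colour Agilent slide, in 1 scan. Per the file headers, the deposited scanner files hold intensity per spot, extracted with Feature Extraction 11.5.1.1 and corrected for background within the array, for build mm9. The authors deposited further values (59448 rows), a linear intensity with a median of 132.9 for wild-type replicate 1, which served as an alternative. Control spots (1439) and outlier spots were left out. Of 60273 probes 67.1% were named through accessions or symbols that the files share with RefSeq (GRCm38.p6, used for names and neighbours only). The other probes kept their deposited name, and each such name counted as a gene. Log2 signals were scaled to the 75th percentile of each array. Each gene was represented by its probe with the highest mean, kept where 4 or more of the 8 arrays were well above background. Groups were compared with limma 3.58.1 in R 4.3.3 (lmFit, eBayes), two-sided, adjusted by Benjamini-Hochberg over all tested genes at 0.05. The number of arrays limits the precision. Files were read with data.table (version 1.17.8), sequences were matched with blastn 2.17.0, and plots were made with Python 3.11.15, pandas 2.3.3, numpy 2.4.6 and matplotlib 3.10.9. The fit and the likeness measure were tested on simulated data. The named genes are the members, Selplg, the sort markers, the 2 or 4 genes of smallest unadjusted p in each list, and the 3 nearest profiles of Tmem119 and P2ry12. Members and lists were chosen with earlier results of these data known. Alternatives were other scalings, normexp with an offset of 50, the deposited values, filters, probe choice, slide row as a block, each array left out and, added after seeing the data, the slide column pair, alone or with the row, as a block. Levels of different probes were not set against each other, beyond naming those that make up most of a sum. Some genes that this rule takes are not reported here.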

Additional observations from a re-analysis of the deposited data

Results flagged for a closer look

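In 7 of 122 groups of 4 arrays, 1 array stood apart from its group by Dixon's ratio of the gap to the group's range, at its 95% critical value, a rate near the 1 in 20 that chance gives. Among the members, Olfml3 probe 1 was low on wild-type replicate 1 (ratio 0.90), at 5.69 against 12.91 to 13.74 on the others. Gpr34 was high on wild-type replicate 4 (ratio 0.93), at 9.10 against 8.55 to 8.59. Sparc probe 1 was high on knockout replicate 8 (ratio 0.86), at 12.57 against 10.13 to 10.48. Among the markers, Egfl7 was high on wild-type replicate 1 (ratio 0.89, 8.36 against 5.88 to 6.16) and Cd3e on wild-type replicate 3 (ratio 0.96, 12.04 against 6.25 to 6.48). Ermn, of oligodendrocytes, was high on knockout replicate 6 (ratio 0.89, 14 against 13.68 to 13.71), and Mag, of myelin, on knockout replicate 5 (ratio 0.88, 10.77 against 10.49 to 10.52).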

How the results depend on the processing

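No paired analysis by replicate was possible because the wild-type replicates are numbered 1 to 4 and the knockout replicates 5 to 8. The groups share no number. Slide position does match 1 array of each group, and was used as a block (row and column pair, added after seeing the data), which left 0 genes and 0 features past the threshold. No member passed the threshold in any setting, and Siglech, Sparc and Crybb1 kept a negative difference in all of them. The 1 gene past the threshold became 4 with cyclic loess, 7 with the filter at all 8 arrays, 2 with slide row as a block, 5 with the mean of all probes, 12 with probes named through RefSeq, 0 with the slide column pair as a block (added after seeing the data) and 0 to 10 with 1 array left out. The 9 features became 1 with normexp, 1 with slide row as a block, 0 with the slide column pair as a block and 0 to 23 with 1 array left out. Leaving out an array also leaves fewer samples, and the cause of these changes was not tested. Signs turned when an array was left out for Tmem119 (range -0.12 to 1.59), P2ry12 (-1.66 to 0.84), P2ry13 (-0.24 to 1.25), Sall1 (-0.59 to 1.22), Olfml3 (-1.85 to 1.28), Gpr34 (-0.13 to 0.37) and Fcrls (-0.10 to 0.65), for Itgam (-0.37 to 0.34), Ptprc (-1.09 to 0.66) and Selplg (-1.01 to 0.01), and for Siglech probe 2 (-0.59 to 0.05), Siglech probe 3 (-0.29 to 0.35) and Fcrls probe 2 (-0.47 to 0.96). With the mean of all probes Olfml3 was -1.46 and Mef2a 0.46. Signs also turned with scaling: quantile normalization gave 0.03 for Syt1, 0.19 for Itgam and 0.06 for Ptprc, and the deposited table the same 0.03, 0.19 and 0.06. Normexp gave 0.06 for Syt1 and 0.17 for Itgam, the array median 0.05 for Itgam, and cyclic loess 0.27 for Itgam, 0.01 for Ptprc, 0.14 for Siglech probe 2 and 0.06 for Sparc probe 2. The cause was not tested. Other values kept their sign, and for faint probes the signal over background limits the size of a difference.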
